A study of Mus musculus with 39 samples.

Results

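The genes described here encode the proteins of the cytosolic ribosome. They were taken by symbol: every gene of the table whose name is an Rpl or Rps number, with an optional letter or copy number, plus Rpsa, Rplp0, Rplp1 and Rplp2, and with pseudogenes named as such (-ps) left out. The rule found 79 of the 11873 genes in the table, 32 of the small (40S) and 47 of the large (60S) subunit. Of these, 74 had enough counts to be tested (30 of the 40S and 44 of the 60S subunit), among 9483 tested genes in all. Rpl21, Rpl32l, Rpl34, Rps15a and Rps27 did not pass the filter on low counts. The annotation lists 2 members, Rpl32l and Rps4l, as pseudogenes. Rpl3l and Rpl39l, tissue-restricted copies, were not in the table.

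The study measured RNA by sequencing in whole livers of C57BL/6 mice, 3 to 5 months old, that breathed 6% or 21% oxygen for 4 h. HLKO mice were Alb-Cre+ Hif1afl/fl and so carried a deletion of the hypoxia factor HIF-1α, BLKO mice were Alb-Cre+ Bmal1fl/fl and so carried one of the clock activator BMAL1, and the comparison mice, called Alb, carried Alb-Cre alone. All 3 genotypes therefore express the recombinase. Exposure ran from CT16 to CT20 or from CT4 to CT8, where CT is circadian time, after 2 weeks of 12 h light and 12 h dark, with lights left off on the day and food freely available. Each of the 12 combinations had 3 libraries, 36 in all, called A, B and C. The albumin promoter drives Cre in hepatocytes, so in HLKO and BLKO livers cells in which it was never active keep the floxed gene. The labels do not say that the libraries of a group came from separate animals, and p-values measure the spread between these libraries, which may be technical. In whole tissue, fewer cells of a type and less RNA per cell cannot be told apart.

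A ribosome reads mRNA on its 40S subunit and joins amino acids on its 60S subunit. Cells make the protein parts in nearly equal numbers, and their mRNAs are among the most abundant in a liver cell. Most of these mRNAs start with a 5′ terminal oligopyrimidine (TOP) tract, a cytosine followed by further pyrimidines, through which the kinase mTORC1 controls how strongly they are translated. Ribosomal protein synthesis in mouse liver follows feeding and the time of day largely at that step, which RNA levels do not show. Low oxygen restrains mTORC1 partly through Ddit4, its stress-induced inhibitor.

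The start sites of 60 of the 79 members are in the RefSeq promoter table for GRCm38.p6, as the first listed start of each gene. A TOP tract, here a C at the annotated start followed by at least 4 more bases that are C or T, was found at the start itself in 13 of 60 members (21.7%), against 2.33% of the 9461 genes of the table with a listed start and 2.49% of all promoters. Within 5 bases of the start, in either direction, it was found in 29 of 60 members (48.3%), against 20.3% of those genes and 18.5% of all promoters. The motif CCGGAA, searched on both strands of the 300 bases around the start, was in 50% of members, 28.3% of those genes and 15.2% of all promoters. The following windows show 10 bases before and 20 bases from the annotated start, 5′ to 3′ on the gene's strand, for members that were called in the comparisons described below, with the pyrimidine tract in capitals. The first 5 have a tract that begins at the start or within 5 bases of it, and the last 3 have none that does. Rpl10a and Rps12 hold pyrimidine runs further off, before and after the start respectively, left in small letters. Rpl14 and Rps18 are shown as examples chosen after their values were seen.
Rps6: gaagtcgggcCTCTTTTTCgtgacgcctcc
Rpl28: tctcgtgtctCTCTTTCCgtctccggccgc
Rpl14: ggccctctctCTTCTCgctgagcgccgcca
Rps18: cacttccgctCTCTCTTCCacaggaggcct
Rpl13a: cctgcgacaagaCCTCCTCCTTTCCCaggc
Rpl10a: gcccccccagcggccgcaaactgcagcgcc
Rpl35a: gcgtgcgtcccacaaggccgcgcggcgggg
Rps12: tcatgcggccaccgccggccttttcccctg
They lie at chr4:86857348-86857377 (minus strand, Rps6), chr7:4792955-4792984 (plus, Rpl28), chr9:120571507-120571536 (plus, Rpl14), chr17:33955646-33955675 (minus, Rps18), chr7:45128726-45128755 (minus, Rpl13a), chr17:28328461-28328490 (plus, Rpl10a), chr16:33056443-33056472 (plus, Rpl35a) and chr10:23787190-23787219 (minus, Rps12). A missing tract says only that these letters are not at this annotated start.

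Library totals ran from 1717589 counts (HLKO CT16 6% A) to 5196957 counts (BLKO CT16 21% A). Hepatocyte markers were high in every library (Alb at a median of 39220 counts scaled to library size, CPM), and the 5 lymphocyte markers in the table summed to at most 249 CPM. Gene counts do not isolate the deleted exons: Hif1a was at 0 to 9.57 CPM in HLKO and 1.89 to 15.03 CPM in Alb libraries, and Arntl, the gene of BMAL1, at 6.07 to 14.5 CPM in BLKO and 2.44 to 22.1 CPM in Alb libraries. Pooled over times and oxygen levels, these ranges overlap and check neither label. At CT16 and 21% oxygen Arntl was at 10.5 to 13.9 CPM in BLKO and 17.5 to 22.1 CPM in Alb libraries. At CT16 and 6% it was at 13.1 to 14.5 CPM in BLKO and 15.1 to 22.1 CPM in Alb libraries. At CT4 the Arntl ranges overlapped at both oxygen levels. Hif1a was at 0 to 4.78 CPM in HLKO and 5.04 to 15.03 CPM in Alb libraries at CT16 and 6%. In the other matched groups its ranges overlapped. Nr1d1, a direct target of BMAL1, was at 6.54 to 23.3 CPM in BLKO and 70.1 to 134 CPM in Alb libraries at CT4 and 21% oxygen. Alb CT4 21% A and Alb CT16 6% A stood apart from the other libraries of their groups (chi-square per degree of freedom 19.7 and 21.5, and 21.4 and 28.1, against 5.33 and 3.92 between the other libraries). Results that use these 2 libraries are also given without them where they move. Smaller gaps were seen for other libraries, such as Alb CT4 6% A (13.2 and 17.2 against 8.65) and BLKO CT16 21% A (12.7 and 9.83 against 5.94).

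The 79 genes together took between 3.53% and 5.46% of a library's counts. In HLKO livers at CT4 the share was 3.62 ± 0.14% at 6% oxygen and 4.43 ± 0.27% at 21% oxygen (SD, n = 3 each here and below), and the groups did not overlap (3.53% to 3.78% against 4.13% to 4.66%). At CT16 it was 4.26 ± 0.20% at 6% and 4.23 ± 0.27% at 21% in HLKO livers. In BLKO livers it was 5.03 ± 0.34% at 6% and 5.13 ± 0.35% at 21% at CT16, and 4.67 ± 0.36% at 6% and 4.46 ± 0.29% at 21% at CT4. In Alb livers it was 4.13 ± 0.45% at 6% and 4.01 ± 0.24% at 21% at CT16, and 4.13 ± 0.11% at 6% and 4.09 ± 0.07% at 21% at CT4. The lowest group was thus HLKO at CT4 under 6% oxygen and the highest were the BLKO groups at CT16, whose 3 libraries at 21% (4.77% to 5.46%) did not overlap those of Alb (3.76% to 4.23%). The ratio of 60S to 40S counts stayed between 1.34 and 1.51 in all libraries.

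**Figure D1:**
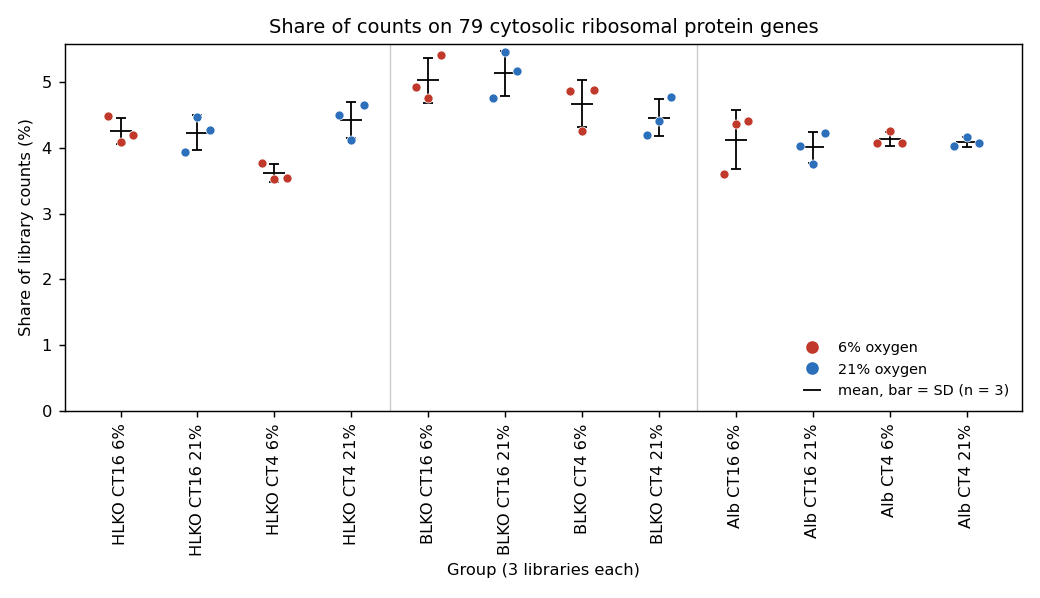
Share of library counts (y axis, %) on the 79 genes in each library (points; red 6%, blue 21% oxygen) by group (x axis), with the mean and SD of 3 libraries. The 3 libraries of HLKO CT4 6% lie between 3.53% and 3.78%, below the 3 of HLKO CT4 21%, and the BLKO groups at CT16 have the highest means.

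Levels differed widely between members. Per kilobase of annotated exon, Rplp1, an acidic protein of the stalk that recruits translation factors, was highest at 4902 CPM per kb over the 36 libraries, followed by Rpl36 at 2726 and Rps29 at 1508 CPM per kb. The lowest were Rps15a at 0.128, Rps27 at 0.332 and Rpl21 at 0.376 CPM per kb. Rps27 had 0 to 5 counts in a library and none in 13 of 36, and Rps24, which was tested, had 2 to 16 counts. Ribosomal protein genes have many processed copies in the genome, and how the authors' counting treated reads that match several places is not given in the sources used here. Of the 77 members with a coding sequence, 65 shared at least 50% of their 50-base windows with the transcript of another gene, and the median member shared 93.0%. The level of a member, and the comparison of levels between members, are uncertain to that extent.

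In HLKO livers at CT4, 24 of the 74 tested members were lower at 6% than at 21% oxygen and none was higher, by edgeR's quasi-likelihood test at a Benjamini-Hochberg adjusted p under 0.05. Over all tested genes 6.72% were called lower and 7.71% higher in this comparison. The members called lower were 10 of the 40S and 14 of the 60S subunit, with log2 fold changes of -1.44 to -0.33. The median log2 fold change was -0.29 over the 74 members and 0.03 over all tested genes, and 6 of 74 lay above 0. The 3 libraries at 6% lay entirely below the 3 at 21% for 37 members, a pattern that 15.8% of all tested genes showed, and entirely above them for 2 members (18.2% of all genes). HLKO CT4 6% was the group with the lowest mean of all 12 for 58 of the 74 members, against 7.26% of all tested genes.

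The 60S protein Rpl35a, whose human counterpart is mutated in some cases of Diamond-Blackfan anaemia, had the lowest p. Its level was 184, 66.3 and 164 CPM at 6%, against 324, 327 and 468 CPM at 21%. All 3 libraries at 6% lay below all 3 at 21%, with library B at 6% the lowest of the 36. The log2 fold change was -1.44 ± 0.28 (SE; adjusted p = 0.000503, edgeR). Rpl10a, which forms the mobile L1 stalk beside the tRNA exit site, had 144, 105 and 119 CPM at 6% and 194, 179 and 184 CPM at 21%. The groups did not overlap, and the log2 fold change was -0.60 ± 0.15 (adjusted p = 0.00459, edgeR). Rpl10, one of the last proteins to join the 60S subunit, had 271, 160.0 and 210.2 CPM at 6% and 362, 364 and 355 CPM at 21%, with a log2 fold change of -0.75 ± 0.20 (adjusted p = 0.00886, edgeR). Rps16, whose tail reaches the tRNA in the decoding centre, had 257, 199 and 207 CPM at 6% and 369, 310.2 and 323 CPM at 21%, with a log2 fold change of -0.59 ± 0.16 (adjusted p = 0.00967, edgeR). In both genes every library at 6% was below every library at 21%.

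Rps6, Rpsa and Rpl13a fell by less than these 4. Rps6, the 40S protein that S6 kinase phosphorylates downstream of mTORC1, had 82.1, 69.8 and 78.1 CPM at 6% against 91.9, 98.5 and 105 CPM at 21% (log2 fold change -0.36 ± 0.12, adjusted p = 0.0466, edgeR). Rpsa, the laminin receptor homologue of the 40S head, fell by 0.41 ± 0.13 on the log2 scale, and Rpl13a, which also leaves the ribosome to silence inflammatory mRNAs in human cells, fell by 0.43 ± 0.14. Their levels were 897, 917 and 949 CPM at 6% against 1269.9, 1066 and 1343 CPM at 21% for Rpsa, and 507, 532 and 522 CPM at 6% against 691, 636 and 770.2 CPM at 21% for Rpl13a. All 3 genes had groups that did not overlap. The stalk proteins Rplp0, Rplp1 and Rplp2 had log2 fold changes of -0.22, -0.17 and -0.39 and did not pass the test (lowest adjusted p = 0.061, Rplp2). Rpl3, beside the peptidyl transferase centre, and Rps3, at the mRNA entry, had log2 fold changes of -0.07 and -0.12 and did not pass it either.

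The paralogous copies gave mixed values. Rpl7l1, a nucleolar relative of Rpl7 that acts in 60S assembly, was lower at 6% (21.2, 22.4 and 28.0 CPM at 6% against 31.6, 33.3 and 40.2 CPM at 21%; log2 fold change -0.58 ± 0.18, adjusted p = 0.0275, edgeR). Rps4l, annotated as a transcribed pseudogene, was also lower (30.2, 34.4 and 37.2 CPM at 6% against 66.1, 85.2 and 50.1 CPM at 21%; log2 fold change -0.99 ± 0.28, adjusted p = 0.0145). Rps4x, its X-linked relative, had a log2 fold change of 0.78 and did not pass the test (adjusted p = 0.214), although its libraries at 6% (23.9, 27.6 and 39.2 CPM) lay above those at 21% (17.7, 10.8 and 23.4 CPM). The counting could split reads between these near copies. Rpl22 and its partner copy Rpl22l1 had log2 fold changes of -0.28 and -0.80, and Rps27l, a copy of Rps27 that p53 induces in human cells, one of -0.16; none of the 3 passed the test.

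The call count rested on few libraries. Leaving out a 6% library (A, B or C) left 12, 5 or 10 calls, and leaving out a 21% library left 10, 23 or 7, while the median log2 fold change of the members stayed between -0.37 and -0.26. DESeq2 called 30 members lower and none higher (6.69% and 6.8% of all genes). Of the 24 members called lower, 19 had a listed start, of which 4 held a TOP tract at the start and 8 within 5 bases. Of the 50 others 37 had a listed start, of which 6 held a tract at the start and 17 within 5 bases. The median log2 fold change was -0.38 over 10 members with the tract at the start and -0.33 over 46 without it. The median share of shared windows was 93.2% in the 24 called and 92.3% in the 50 others. Kupffer cell markers summed to 243 to 296 CPM at 6% and 198 to 311 CPM at 21%, with 0 of 10 called, and endothelial markers to 140 to 216 CPM at 6% and 139 to 148 CPM at 21%, with 0 of 8 called. Of 6 hepatocyte markers, which summed to 66199 to 82374 CPM at 6% and 70858 to 80404 CPM at 21%, Tat was called higher and Apoa1 lower. Tat, an amino acid catabolic enzyme, averaged 3446 ± 229.9 CPM at 6% and 718 ± 164 CPM at 21%, and Apoa1, the main protein of HDL, 9897 ± 349 CPM at 6% and 13974 ± 1516 CPM at 21%. The part of these in the members' result was not tested.

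**Figure D2:**
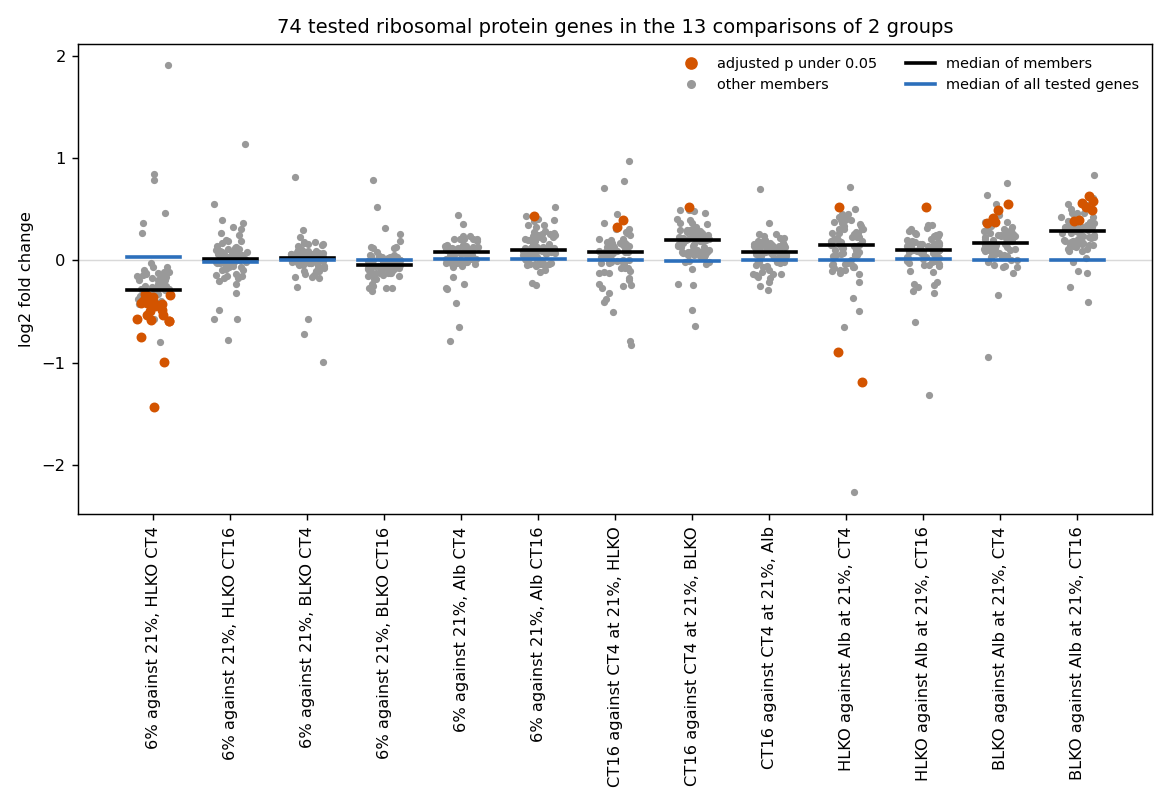
log2 fold change (y axis) of the 74 tested members in the 13 comparisons of 2 groups (x axis); orange points passed an adjusted p of 0.05, grey points did not, and lines mark the median of the members (black) and of all tested genes (blue). In HLKO at CT4 the members' median is -0.29 and 24 points are called, and in BLKO against Alb at CT16 it is 0.28 with 7 called.

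The same exposure gave 1 call in all the other groups. In HLKO livers at CT16 edgeR called no member (5.4% of all tested genes higher, 4.34% lower) and DESeq2 none (8.65% of all genes). An unadjusted p under 0.05 was reached by 5 members, against 24.2% of all tested genes, and the median log2 fold change was 0.01. Without HLKO CT16 6% B or C edgeR called 1. In BLKO livers at CT4 edgeR called none (2.57% of all genes higher, 2.06% lower) and DESeq2 none (4.39% of all genes). There 3 members had an unadjusted p under 0.05, against 16.4% of all tested genes, and the median was 0.02. In BLKO livers at CT16 edgeR called none (4.77% higher, 4.63% lower) and DESeq2 none (8.5% of all genes). There 2 members had an unadjusted p under 0.05, against 22.2% of all tested genes, and the median was -0.05. Without BLKO CT16 21% C edgeR called 2. In Alb livers at CT4 edgeR called none (5.28% higher, 3.88% lower) and DESeq2 none (8.16% of all genes). An unadjusted p under 0.05 was reached by 1 member, against 22.7% of all tested genes, and the median was 0.08. There 7 of 10 Kupffer cell markers and 4 of 8 endothelial markers were called higher, with no member beside them. In Alb livers at CT16 Rpl10a rose at 6% oxygen, where 6.72% of all genes were called higher and 6.76% lower. Its level was 134, 217 and 215 CPM at 6%, against 144, 128 and 145 CPM at 21%, with library A at 6% within the range at 21% (log2 fold change 0.44 ± 0.14, adjusted p = 0.04, edgeR). That library is 1 of the 2 that stood apart, and without it 8 members were called. Without Alb CT16 21% B or C, or Alb CT16 6% B or C, none was called. The median log2 fold change of the members was 0.10. An unadjusted p under 0.05 was reached by 5 members, all higher, against 26.8% of all tested genes (13.8% higher). This median lay between 0.04 and 0.21 as single libraries were left out. The Kupffer cell marker C1qb, the endothelial marker Egfl7, the neutrophil marker S100a9 and the hepatocyte marker Tat were also called higher, and their part was not tested.

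Rpl35a and Rpl10a were set side by side over the other 6% against 21% comparisons. Rpl35a had log2 fold changes of -0.13 in HLKO at CT16, -0.13 in BLKO at CT4, -0.07 in BLKO at CT16, -0.01 in Alb at CT4 and 0.26 in Alb at CT16. Rpl10a had 0.33 in HLKO at CT16, 0.02 in BLKO at CT4, -0.00 in BLKO at CT16 and 0.24 in Alb at CT4. None of these values passed the test, and Rpl10a in Alb at CT16 is given above. The HLKO libraries at CT4 and 21% oxygen also enter the comparisons of time and of genotype given below.

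In HLKO livers the response was also compared between the times of exposure. The 6% against 21% log2 fold change at CT16 minus that at CT4 was called for 10 members, all positive (7 of the 60S, 3 of the 40S subunit), where 3.81% of all tested genes were called positive and 4.83% negative. The median over the 74 members was 0.30, and 64 of 74 were above 0. Rpl10a had the lowest p, with a difference of 0.92 ± 0.21 (adjusted p = 0.00424, edgeR): its levels at CT16 were 204, 172 and 164 CPM at 6% and 130.2, 169 and 129 CPM at 21%. Rpl7l1 had a difference of 0.95 ± 0.26 (adjusted p = 0.0204), Rplp2 of 0.70 ± 0.20 (adjusted p = 0.0276) and Rps15 of 0.68 ± 0.20 (adjusted p = 0.0316). Rplp2, the second acidic stalk protein, had 952, 857 and 939 CPM at 6% and 721, 839 and 664 CPM at 21% at CT16, against 658, 538 and 589 CPM at 6% and 801, 784 and 757 CPM at 21% at CT4. At each time its groups did not overlap, in opposite directions. The comparison shares its CT4 libraries with the previous one, so the counts are not independent. Without HLKO CT16 6% A the count was 1, without HLKO CT4 21% A and C 4 and 2, without HLKO CT4 6% B and C 3 and 5, and without HLKO CT16 21% A, B and C 2, 3 and 6. In BLKO and Alb livers no member was called for this difference by edgeR or DESeq2 (edgeR called 0.496% and 0.0527% of all genes positive and 0.337% and 0.179% negative; DESeq2 called 1.05% and 0.724% in either direction). In BLKO livers 2 and in Alb livers 1 had an unadjusted p under 0.05, against 11.7% and 8.69% of all tested genes. Of the hepatocyte markers in HLKO livers, Tat was called for this difference with a negative sign (-2.35) and Apoa1 with a positive one (0.62), and their part was not tested.

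The response at CT4 was also set against that of Alb livers. The HLKO minus Alb difference was called for Rpl10a alone, at -0.83 ± 0.21 (adjusted p = 0.0322, edgeR), where 0.591% of all tested genes were called negative and 0.991% positive. Its 3 libraries at 6% in Alb livers had 163, 179 and 155 CPM, against 129.5, 143 and 149 CPM at 21%, the opposite order to HLKO. The median difference was -0.37 over the 74 members and 0.00 over all tested genes, and 8 members were above 0. An unadjusted p under 0.05 was reached by 37 members, against 17.9% of all tested genes. Tat (1.06) and Apoa1 (-0.69) were called for the same difference, and their part was not tested. DESeq2 called 4 (3.43% of all genes). The call of Rpl10a ended without Alb CT4 21% A or B, Alb CT4 6% B, HLKO CT4 21% A or C, or HLKO CT4 6% B or C, when no member was called. There were 2 calls without Alb CT4 21% C, HLKO CT4 21% B or HLKO CT4 6% A, 3 without Alb CT4 6% C, and 3 without both Alb libraries that stood apart. For HLKO minus Alb at CT16, and for BLKO minus Alb at CT4 and CT16, no member was called by edgeR or DESeq2. An unadjusted p under 0.05 was reached by 5, 1 and 6 members, against 9.89%, 9.52% and 7.05% of all tested genes. Of all genes edgeR called 0.359%, 0.0422% and 0.0211% positive and 0.517%, 0.148% and 0.0949% negative. DESeq2 called 1.26%, 0.714% and 0.244% in either direction.

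**Figure D3:**
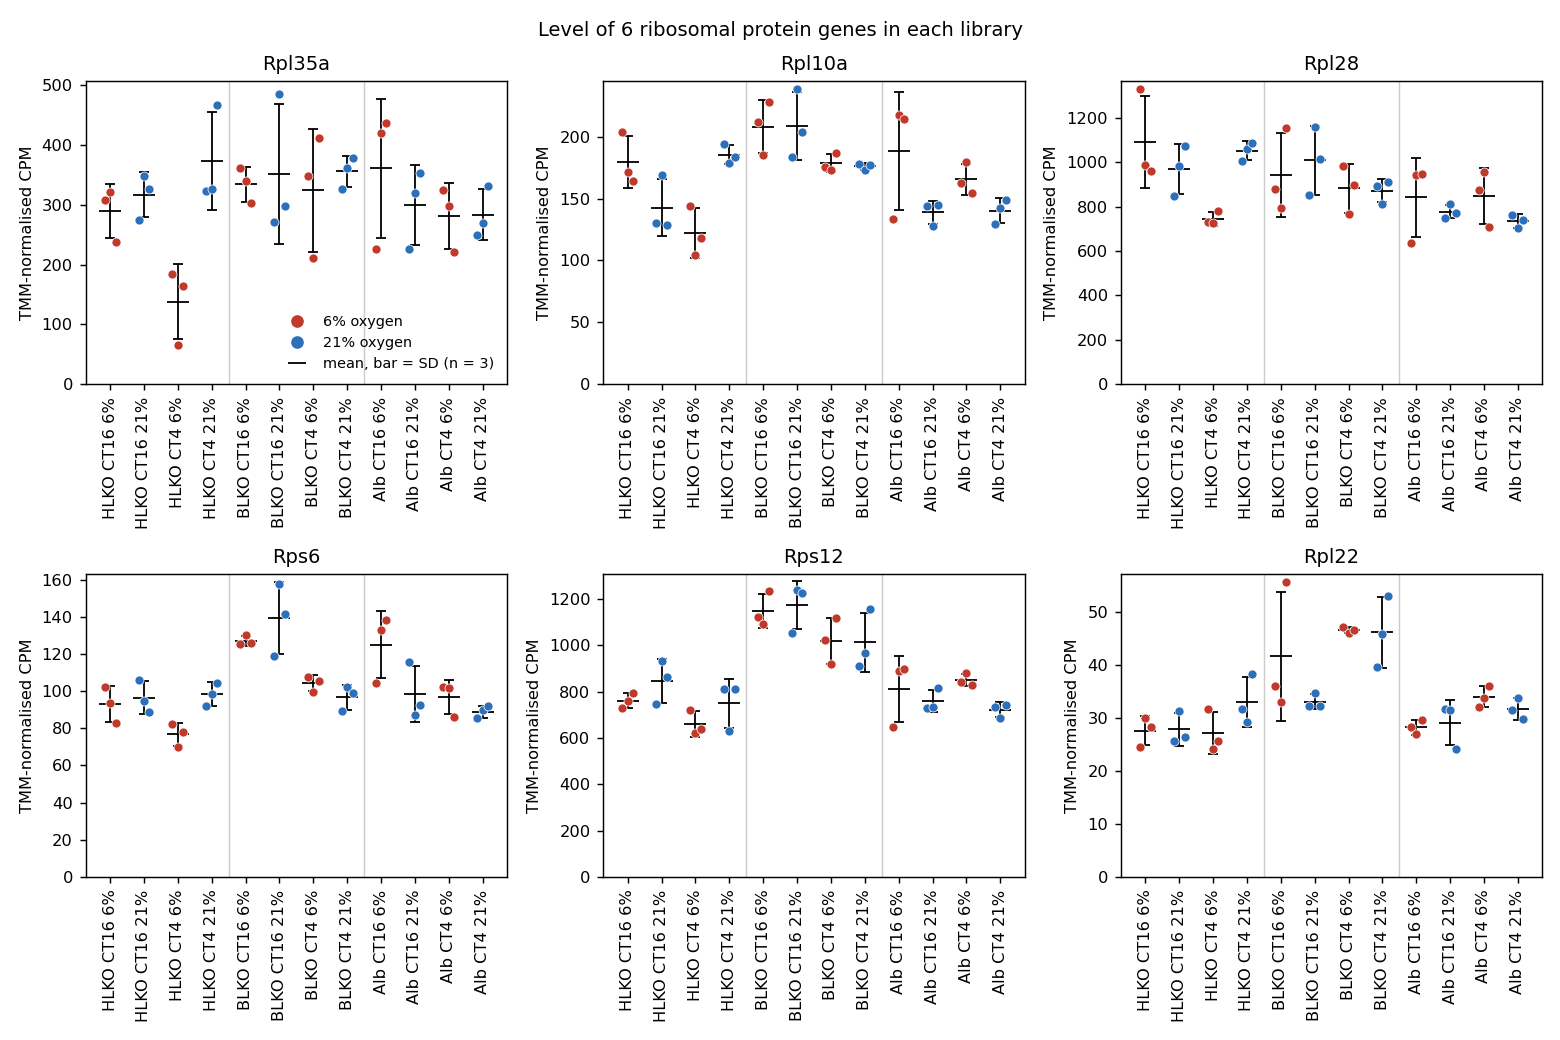
Level (y axis, TMM-normalised CPM from 0) of 6 members in each library (points; red 6%, blue 21% oxygen) by group (x axis), with the mean and SD of 3 libraries. Rpl35a, Rpl10a, Rps6 and Rps12 have their lowest mean in HLKO CT4 6%, and Rps12 has its highest means in the 4 BLKO groups.

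At 21% oxygen, livers exposed from CT16 to CT20 were compared with those exposed from CT4 to CT8. They differed in 2 members in HLKO, 1 in BLKO and none in Alb livers. In HLKO livers Rpl3 was higher at CT16, at 441, 472 and 411 CPM against 362, 295 and 353 CPM at CT4 (log2 fold change 0.39 ± 0.11, adjusted p = 0.0144, edgeR). Rps13, a 40S protein near the subunit interface, was also higher, at 507, 517 and 499.8 CPM at CT16 against 437, 364 and 418 CPM at CT4 (log2 fold change 0.32 ± 0.10, adjusted p = 0.0267). In neither gene did the times overlap. These were the 2 calls, where 6.57% of all genes were called higher and 5.29% lower. Without HLKO CT4 21% B, or HLKO CT16 21% A or B, 1 call was left. In the same comparison Alas2, the red cell marker in the table, was called higher (228 ± 137 CPM at CT16 and 67.7 ± 3.18 CPM at CT4), as were the hepatocyte markers Tat (log2 fold change 2.45) and Cps1 (0.48). Their part was not tested. In BLKO livers Rps6 was higher at CT16, at 119, 158 and 141 CPM against 89.2, 102 and 98.7 CPM at CT4 (log2 fold change 0.52 ± 0.12, adjusted p = 0.0169, edgeR), the single member called beside 0.854% of all genes higher and 1.34% lower. It ended without BLKO CT4 21% A or C, or BLKO CT16 21% B or C, and there were 2 calls without BLKO CT16 21% A and 2 by DESeq2 (2.71% of all genes). Tat was called higher there (0.82), and its part was not tested. The BLKO members as a list had a median of 0.19, with 65 of 74 above 0. In Alb livers no member was called by edgeR (0.707% of all genes higher, 0.559% lower) or DESeq2 (2.2% of all genes). There 4 had an unadjusted p under 0.05, against 11.9% of all tested genes, and the median was 0.08. The time difference of HLKO or BLKO minus that of Alb was called for no member by edgeR or DESeq2. Respectively 1 and 4 members had an unadjusted p under 0.05, against 10.96% and 9.93% of all tested genes. Of all genes edgeR called 0.496% and 0.306% positive and 0.443% in each case negative. DESeq2 called 1.75% and 1.37% in either direction.

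BLKO livers were compared with Alb livers at 21% oxygen. At CT16, 7 members were higher and none lower, beside 2.14% of all genes higher and 3.24% lower. The median log2 fold change was 0.28 over the 74 members and 0.00 over all tested genes, 69 were above 0, 34 had an unadjusted p under 0.05 (16.2% of all tested genes), and 40 had groups that did not overlap, all higher in BLKO (10.3% of all genes were entirely higher and 11.7% entirely lower). Rps12, a 40S protein found in eukaryotes, had 1054, 1238 and 1225 CPM in BLKO and 728, 735 and 814 CPM in Alb livers, a log2 fold change of 0.63 ± 0.12 (adjusted p = 0.00116, edgeR). Rps6 had 119, 158 and 141 CPM in BLKO and 116, 87.2 and 92.8 CPM in Alb livers, 0.50 ± 0.12 (adjusted p = 0.0102). Rpl10a had 184, 238 and 204 CPM in BLKO and 144, 128 and 145 CPM in Alb livers, 0.58 ± 0.14 (adjusted p = 0.0109). In all 3 genes every BLKO library was above every Alb library. Rps13 was also higher, by 0.38 ± 0.10 (adjusted p = 0.0136). BLKO CT16 21% was the group with the highest mean of all 12 for 32 members (6.11% of all tested genes), and BLKO CT16 6% for another 16 (9% of all genes).

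DESeq2 called 13 members at CT16 (5.33% of all genes). Leaving out Alb CT16 21% A left 3 calls and leaving out B left 1. Leaving out BLKO CT16 21% A left 12 and leaving out B left 1. Hepatocyte markers summed to 63153 to 64775 CPM in BLKO and 73301 to 93315 CPM in Alb livers, and Kupffer cell markers to 203 to 357 CPM in BLKO and 161 to 254 CPM in Alb livers. The gene Alb itself was called lower in BLKO livers (log2 fold change -0.79) and Tat higher (0.65). The part of these in the members' difference was not tested.

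At CT4, 5 members were higher in BLKO than in Alb livers and none lower, beside 3.78% of all genes higher and 3.67% lower. The median was 0.17 and 66 of 74 were above 0. Rps12 was again among them, at 912, 968 and 1156 CPM in BLKO and 734, 684 and 744 CPM in Alb livers (log2 fold change 0.49 ± 0.12, adjusted p = 0.0103, edgeR). Rpl3 had 479, 442 and 513 CPM in BLKO and 398, 323 and 355 CPM in Alb livers (0.41 ± 0.11, adjusted p = 0.0138). Rpl22, a 60S protein that is dispensable for most cells of the mouse but needed by αβ T cells, had 39.7, 45.8 and 53.1 CPM in BLKO and 31.4, 33.8 and 29.9 CPM in Alb livers (0.55 ± 0.16, adjusted p = 0.0263). Rpl32, of the 60S subunit, was higher by 0.37 ± 0.10 (adjusted p = 0.0234). No group overlapped in these 4 genes. The count was 3, 1 and 2 without Alb CT4 21% A, B and C, and 3 and 0 without BLKO CT4 21% B and C. It was 1 when only the 2 groups were fitted, and 8 by DESeq2 (7.15% of all genes). Of these 8, 7 were higher and 1, Rps4l, was lower in BLKO livers. The hepatocyte marker Alb was called lower (24201 ± 3701 CPM in BLKO and 37167 ± 5049 CPM in Alb livers) and the cholangiocyte marker Sox9 higher (14.7 ± 3.08 CPM in BLKO and 6.87 ± 1.09 CPM in Alb livers). Hepatocyte markers summed to 52418 to 60776 CPM in BLKO and 57701 to 73920 CPM in Alb livers. Their part was not tested.

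HLKO livers at 21% oxygen differed from Alb livers in 3 members at CT4 (4.1% of all genes higher, 5.61% lower). Rpl15, a 60S protein, had 9.58, 11.1 and 10.2 CPM in HLKO and 17.3, 24.4 and 16.1 CPM in Alb livers (log2 fold change -0.90 ± 0.24, adjusted p = 0.0165, edgeR). Rpl5, which carries the 5S rRNA into the 60S subunit together with Rpl11, had 3.83, 3.80 and 2.97 CPM in HLKO and 10.6, 7.92 and 5.79 CPM in Alb livers (-1.19 ± 0.36, adjusted p = 0.0354). Rpl28, of the 60S subunit, went the other way, at 1007, 1062 and 1089 CPM in HLKO and 764, 703 and 740.1 CPM in Alb livers (0.52 ± 0.15, adjusted p = 0.029). No group overlapped, but Rpl15 and Rpl5 rest on few reads. The median over the 74 members was 0.15, with 53 above 0. The count was 1 and 0 without Alb CT4 21% A and B, 0 without HLKO CT4 21% A or C, and 5 by DESeq2 (11.1% of all genes). Alas2 was called lower (67.7 ± 3.18 CPM in HLKO and 185 ± 30.05 CPM in Alb livers), as were Tat (log2 fold change -0.87) and Cps1 (-0.47), and Apoa1 was called higher (0.60). Their part was not tested. At CT16 Rps9, a 40S protein of the mRNA entry, was the 1 call (627, 564 and 561 CPM in HLKO, 404, 431 and 385 CPM in Alb livers; 0.52 ± 0.15, adjusted p = 0.0403), beside 2.06% of all genes higher and 1.51% lower. It was lost whichever of the 6 libraries was left out. Tat was called higher there (1.52), and its part was not tested. The HLKO libraries at CT4 and 21% oxygen used here are the ones against which the 6% libraries were compared above.

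Over the 22 comparisons, 35 of the 74 tested members were called at least once and 39 never, and of all tested genes 45.9% were called at least once. Rpl10a was called in 5, and Rpl28 and Rps6 in 3 each.

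Rpl29, a 60S protein that was called in no comparison, spread more widely in HLKO livers than any other tested member at or over 50 CPM. It was singled out after its values were seen. Its coding sequence shared 90.3% of its 50-base windows with transcripts of 84 other genes, so its level is uncertain to that extent. Its gene lies at chr9:106429454-106431568 (plus strand, GENCODE M21, GRCm38). In HLKO livers it had 8.82, 12.97 and 246 CPM at CT16 6%, 196, 255 and 12.5 CPM at CT16 21%, 364, 172 and 355 CPM at CT4 6%, and 16.3, 208 and 8.58 CPM at CT4 21%, each in the order A, B, C. So 5 of 12 HLKO libraries, from 3 of the 4 groups, lay at or under 16.3 CPM. All 12 BLKO libraries lay between 299.7 and 503 CPM and all 12 Alb libraries between 333 and 446 CPM. The highest HLKO library was 42.5-fold the lowest. Among the 65 tested members at or over 50 CPM the next largest such ratio within HLKO was 7.05, the median was 1.62, and within BLKO and Alb the largest were 2.69 and 2.05. Its log2 fold change of 1.91 ± 0.78 at 6% against 21% in HLKO at CT4 (adjusted p = 0.0976, edgeR) was the highest of all members.

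The levels of Rpl29 in HLKO livers at CT4 stand beside the calls there. All 3 HLKO CT4 6% libraries were at 172 CPM or more, and 2 of the 3 HLKO CT4 21% libraries, A and C, at or under 16.3 CPM. The summed share of the 79 members in these 21% libraries was 4.5% and 4.66%, and 4.13% in library B, which had 208 CPM of Rpl29. Whether the HLKO mice differed in their alleles at or near Rpl29 was not tested. The part of Rpl29's spread in the calls of HLKO at CT4 was not tested.

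**Figure D4:**
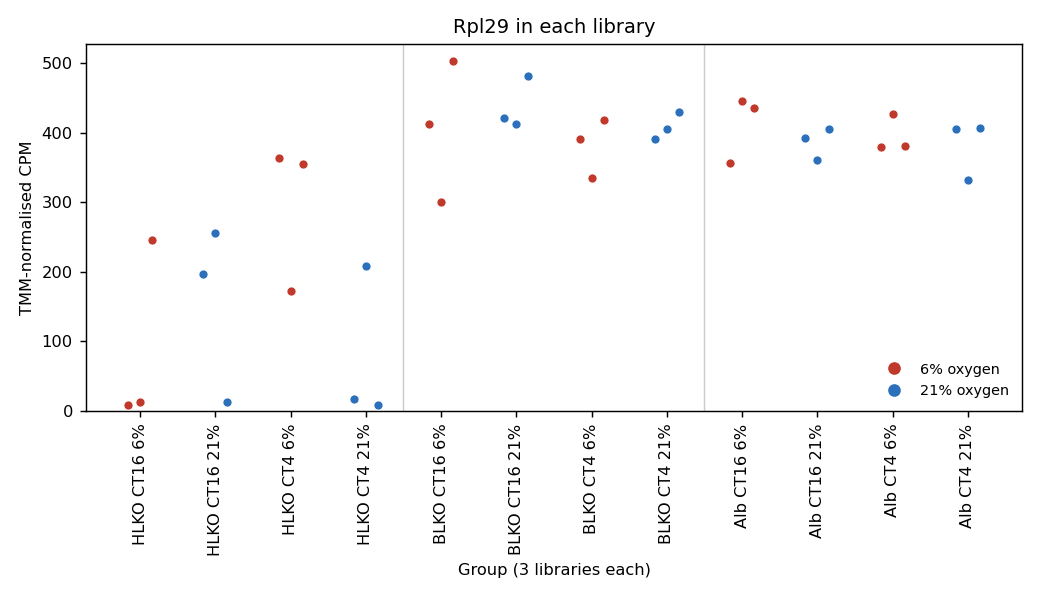
Level of Rpl29 (y axis, TMM-normalised CPM from 0) in each library (points; red 6%, blue 21% oxygen) by group (x axis). The HLKO libraries lie from 8.58 to 364 CPM, with 5 of 12 at or under 16.3 CPM, and all BLKO and Alb libraries lie at 299.7 CPM or above.

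Other genes of the translation machinery, taken from lists by name, gave the surroundings of the HLKO result at CT4. In that comparison 6.72% of all tested genes were called lower and 7.71% higher, to be set beside each list. Of 44 tested genes of ribosome assembly 6 were lower at 6% than at 21% oxygen and none higher, with a median log2 fold change of -0.16. Rrn3, an initiation factor of RNA polymerase I, had 16.9 ± 1.69 CPM at 6% and 39.5 ± 11.4 CPM at 21% (log2 fold change -1.25 ± 0.22, adjusted p = 0.000139, edgeR). Its HLKO libraries at CT4 and 21% (30.2 to 52.1 CPM) lay above every library of the other groups, the highest being 27.4 CPM. Those at CT4 and 6% had 15.7 to 18.8 CPM. In Alb livers at CT4 it had 14.1 to 15.2 CPM at 6% and 15.8 to 26.1 CPM at 21%. Nop56, a core protein of the snoRNPs that modify rRNA, had 4.59 ± 1.90 CPM at 6% and 19.4 ± 10 CPM at 21% (-2.04 ± 0.38, adjusted p = 0.000304). Of 16 elongation factors and other TOP genes Eef2, the translocase, was lower (-0.34 ± 0.11, adjusted p = 0.0383) and Npm1 higher. Of 4 tested ribosomal proteins with other names Rack1, a 40S scaffold, was lower (-0.28 ± 0.10, adjusted p = 0.0469). Of 26 initiation factors Eif5 and Eif1 were higher and none lower, and of 69 mitochondrial ribosomal proteins 2 were higher and 4 lower, with a median of -0.02. Ddit4 was higher (104 ± 36.8 CPM at 6% and 5.60 ± 1.73 CPM at 21%), as it was in BLKO and Alb livers at both times. In HLKO livers at CT16 Ddit4 was not called, with 84.6 to 131 CPM at 6% and 21.6 to 138 CPM at 21%. At that time 7 of the 44 assembly genes were higher and 1 lower at 6% oxygen in HLKO livers (median log2 fold change 0.38). Of all tested genes 5.4% were higher and 4.34% lower. The assembly genes' CT16 minus CT4 difference was called for 10, all positive, beside the 10 ribosomal proteins called for it. For that difference 3.81% of all tested genes were called positive and 4.83% negative. In Alb and BLKO livers at CT16, 5 and 6 assembly genes were higher at 6% and none lower, with medians of 0.28 and 0.25. Of all tested genes 6.72% and 4.77% were higher there, and 6.76% and 4.63% lower.

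The same lists were read in BLKO against Alb livers. At CT16, where 7 members were higher, so was 1 of the 44 assembly genes (Polr1c, a subunit of RNA polymerases I and III). The median log2 fold change of the assembly genes was -0.03. None of the 69 mitochondrial ribosomal proteins or 16 elongation and TOP genes passed the test. Of all tested genes 2.14% were called higher and 3.24% lower. At CT4, 4 of 44 assembly genes were higher, with a median of 0.28, where 3.78% of all tested genes were called higher and 3.67% lower. Whether the lists differ from the members was not tested.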

How the data were processed

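RNA of 36 mouse liver libraries was analysed from the table of raw counts per gene that the authors deposited. Per the submitters' processing notes the tools were cutadapt, STAR 2.4.2a, HTSeq and DESeq2 with the build mm10; strand and multi-mapping settings are not given in the sources used here. The deposited normalized signal columns were not used. A further 3 samples of the series were not analysed here.

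Counts were fitted with edgeR 4.0.16 in R 4.3.3 (TMM scaling, filterByExpr with a count minimum of 10, quasi-likelihood test) in 1 model of 12 groups without a replicate block, which gave 9483 tested genes and 22 comparisons, 13 of 2 groups and 9 of differences between them. P-values were adjusted over all tested genes within each comparison by Benjamini-Hochberg, and an adjusted p under 0.05 is a call. CPM were computed here with the TMM factors, and log2 fold changes are edgeR's. Library totals set the precision, and low members are the least certain. The procedure was tested on simulated data. Same-letter libraries deviated together in 0 of 13 comparisons (all 3 correlations over 0.1). With 3 libraries per group this rule cannot show that the letters are unpaired. For CT16 against CT4 in Alb livers letter A had a correlation of 0.217, and B and C had -0.0367 and -0.0984. The main fit used no pairing.

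Alternatives were DESeq2 1.42.0, RLE scaling, TMM without the members, no low-count filter, the compared groups only, a replicate block, each library left out in turn, and both Alb libraries that stood apart left out. Members and lists were chosen with earlier results of these data known. Genes named are a list by role, all calls of a comparison up to 6 or otherwise the 4 with the lowest p in each direction, the 3 highest and lowest per length, the 3 called most often, and up to 2 per other list; Rpl29, Rpl14 and Rps18 were added after their values were seen. The values of 1 called member are not reported here. Promoters are RefSeq's. Figures were drawn with matplotlib 3.10.9.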

Additional observations from a re-analysis of the deposited data

Results flagged for a closer look

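The 6% against 21% response differed between CT16 and CT4 in HLKO livers for 10 members by the test of that difference (edgeR, adjusted over all tested genes; CT16 minus CT4). The log2 differences were 1.31 for Rpl35a, 0.95 for Rpl7l1, 0.92 for Rpl10a, 0.80 for Rpl24, 0.72 for Rps16, 0.70 for Rplp2, 0.68 for Rps15, 0.67 for Rpl28, 0.64 for Rps3a1 and 0.60 for Rpl36. The adjusted p-values lay between 0.00424 (Rpl10a) and 0.0449 (Rpl28), and 9 of the 10 calls are of genes that were also called lower at 6% in HLKO livers at CT4, with which they share 6 libraries. Rpl10a also differed between HLKO and Alb livers at CT4, by -0.83 on the log2 scale (adjusted p = 0.0322).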

How the results depend on the processing

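No called gene reversed its direction under any alternative. All 55 called values stayed past the threshold under DESeq2, RLE scaling and TMM without the members; 11 lost it in fits on the compared groups only, 4 without a low-count filter, 4 with a replicate block, and 4 of 10 without both Alb libraries that stood apart. With the replicate block the counts of members called were 22 in HLKO at CT4 and 9 for the CT16 minus CT4 difference in HLKO, and 0 at 6% against 21% in Alb at CT16; no other count moved by over 1.5 times. In fits on the compared groups only, the count was 1 for 6% against 21% in BLKO at CT4, 0 in Alb at CT16, 0 for CT16 against CT4 in BLKO and 1 for BLKO against Alb at CT4. DESeq2 called 2 for CT16 against CT4 in BLKO, 5 for HLKO against Alb at CT4, 8 and 13 for BLKO against Alb at CT4 and CT16, and 4 for the HLKO minus Alb response at CT4. Without both Alb libraries the counts were 8 for Alb at CT16, 3 for BLKO against Alb at CT4 and 3 for the HLKO minus Alb response at CT4, and without a low-count filter 1 for CT16 against CT4 in HLKO. The cause was not tested.

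Leaving out each library in turn gave 5 to 23 calls in HLKO at CT4, 0 to 1 in HLKO at CT16, 0 to 2 in BLKO at CT16 and 0 to 8 in Alb at CT16 for 6% against 21%. It gave 1 to 3 for CT16 against CT4 in HLKO and 0 to 2 in BLKO. It gave 0 to 3 and 0 to 0 for HLKO against Alb at CT4 and CT16, and 0 to 5 and 1 to 12 for BLKO against Alb. It gave 1 to 14 for the CT16 minus CT4 response in HLKO, 0 to 3 for the HLKO minus Alb response at CT4, and 0 for the others.

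Without the 10 most abundant genes in the denominator the summed share was 5.33% at 6% and 5.27% at 21% in HLKO at CT16, 4.44% at 6% and 5.53% at 21% in HLKO at CT4, 5.92% at 6% and 6.18% at 21% in BLKO at CT16, and 5.59% at 6% and 5.35% at 21% in BLKO at CT4. In Alb it was 4.92% at 6% and 4.93% at 21% at CT16, and 4.96% at 6% and 4.90% at 21% at CT4.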

Other observations

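The genes whose levels over the 12 HLKO libraries were most like those of Rpl29 were looked up after its values were seen, ranked by the correlation of log2(CPM + 0.5). The libraries fall into separate clusters, so no coefficient is given. The 10 most alike were Morf4l1, Ccdc12, Pithd1, Tmie, Tusc2, Npas2, Pxdn, Cmtm8, Qpct and Smyd4. Of these, 5 lie on chromosome 9 like Rpl29, which holds 5.65% of the tested genes with a position. Tusc2 starts 1.13 Mb, Ccdc12 4.23 Mb, Tmie 4.44 Mb, Cmtm8 8.36 Mb and Morf4l1 16.3 Mb from Rpl29. Morf4l1, a chromatin reader, had 6.30, 3.41 and 14.3 CPM at CT16 6%, 17.01, 20.4 and 2.20 CPM at CT16 21%, 29.7, 15.03 and 21.6 CPM at CT4 6%, and 6.70, 18.1 and 2.64 CPM at CT4 21% in HLKO livers, in the order A, B, C. It had 20.6 to 36.8 CPM in BLKO and Alb libraries. Whether these libraries differ in alleles of this chromosome was not tested. Among the 10 genes most opposite to Rpl29, 1 lies on chromosome 9: Nudt16, at rank 3, which starts 1.301 Mb from Rpl29. In HLKO livers Nudt16 had 25.2, 30.4 and 17.3 CPM at CT16 6%, and 15.3, 9.45 and 33.8 CPM at CT16 21%. At CT4 it had 10.6, 19.2 and 7.61 CPM at 6%, and 29.7, 18.4 and 29.7 CPM at 21%. It had 3.27 to 12.97 CPM in BLKO and Alb libraries. Also among these 10 were 4 ribosomal proteins, Rps26, Rpl38, Rpl37 and Rpl13, where such genes are 0.780% of the tested genes. Rps26 had 730.2, 694 and 578 CPM at CT16 6%, 567, 568 and 749 CPM at CT16 21%, 540.04, 487 and 487 CPM at CT4 6%, and 626, 585 and 767 CPM at CT4 21% in HLKO livers, and 433 to 901 CPM in BLKO and Alb libraries.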
